A study of Mus musculus with 17 samples.

Results

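In a sequencing survey of long noncoding RNA (lncRNA) in the newborn mouse heart, 55 of 23940 transcript rows dropped steeply within the first 3 days of life in both ventricles. The survey measured total RNA from whole right ventricle (RV) and left ventricle (LV) of male C57Bl/6 pups on the day of birth (P0) and on postnatal days 3 (P3) and 7 (P7). It holds 17 strand-specific libraries, 3 biological replicates per ventricle and age except for 2 in the RV at P7, and no allele or agent was named for any group. Members were chosen by their measured P3 and P0 values: P3 minus P0 of the mean log2(FPKM + 0.1) had to be at most -1.2 in the RV and in the LV, and the mean over the 17 libraries at least 0.3 FPKM. FPKM stands for fragments per kilobase of transcript relative to library depth. The rule left out the mitochondrial chromosome, a short stretch of chromosome 14 and the row TCONS_00049214, which together removed 4 rows that met both thresholds. The drop at P3 is therefore given below as a description only.

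Long noncoding RNAs are transcripts without a long open reading frame, and many lie antisense to coding genes, inside their introns or beside them. Some act on chromatin, on splicing or on the stability of other RNAs, while for most no function is known. In the week after birth the mouse heart changes from fetal to postnatal circulation, its muscle cells leave the cell cycle, and its metabolism moves from glucose towards fatty acids.

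The tables name rows only by NONCODE (NONMMUT) or assembly (TCONS) identifiers. Coordinates are printed as deposited and are taken to be mm9. To name members, each row was compared with GENCODE release M21 transcripts (GRCm38) of exactly the same span. A match counted if at least 3 other rows within 2 Mb matched with the same spacing. This placed 3884 of 23238 positioned rows and 7 of the 47 positioned members, and the 6 of these described below were singled out for their match, after their values had been seen. The first 200 bases of 4 of them are shown because they are annotated lncRNAs antisense to named coding genes. They are spliced GENCODE M21 transcripts, 5′ to 3′, with exon 1 in capitals. Gm41505 is NONMMUT027837, at chr16:94943501-94975045 on the plus strand, antisense to Kcnj6, which encodes an inwardly rectifying potassium channel. Gm15283 is NONMMUT014655, at chr12:75027468-75050772 on the minus strand, antisense to Hif1a, which encodes the oxygen-regulated subunit of hypoxia-inducible factor. Gm16754 is NONMMUT068290, at chr9:21029815-21037083 on the plus strand, antisense to Keap1, which encodes the adaptor that directs Nrf2 to degradation. 4930478M13Rik is NONMMUT025025, at chr15:99935665-99938592 on the minus strand, antisense to Dip2b.
Gm41505: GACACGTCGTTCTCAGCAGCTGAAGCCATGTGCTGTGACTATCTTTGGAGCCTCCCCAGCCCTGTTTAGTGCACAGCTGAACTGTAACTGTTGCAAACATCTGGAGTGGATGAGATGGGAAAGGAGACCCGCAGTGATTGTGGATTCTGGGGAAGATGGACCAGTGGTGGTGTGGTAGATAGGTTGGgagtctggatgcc
Gm15283: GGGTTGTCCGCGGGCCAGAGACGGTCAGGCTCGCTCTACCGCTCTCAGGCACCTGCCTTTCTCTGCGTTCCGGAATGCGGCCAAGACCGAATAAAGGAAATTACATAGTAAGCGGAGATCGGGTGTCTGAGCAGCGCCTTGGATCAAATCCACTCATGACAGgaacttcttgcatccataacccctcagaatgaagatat
Gm16754: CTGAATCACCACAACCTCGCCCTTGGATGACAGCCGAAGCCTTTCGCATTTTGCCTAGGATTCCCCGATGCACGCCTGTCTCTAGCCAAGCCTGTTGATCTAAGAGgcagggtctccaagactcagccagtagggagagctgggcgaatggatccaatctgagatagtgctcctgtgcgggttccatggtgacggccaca
4930478M13Rik: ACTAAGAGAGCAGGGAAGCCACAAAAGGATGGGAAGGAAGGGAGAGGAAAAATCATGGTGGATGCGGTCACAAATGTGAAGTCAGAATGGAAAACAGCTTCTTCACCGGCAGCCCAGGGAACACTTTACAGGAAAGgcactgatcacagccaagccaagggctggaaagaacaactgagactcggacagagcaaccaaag

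Implied depth ran between 13.78 and 20.53 M fragments per library. One library stood apart: RV P3 replicate 2 was the shallowest, had 49.2% of rows listed at 0, and scored 57.7 on the third principal component, where the other 16 lay between -16.2 and 10.9. Values without it are given beside several of the RV results below. On the first component, P3 replicate 2 of both ventricles lay towards the P7 libraries, at -18.4 in the RV and -20.0 in the LV. The other P3 libraries scored 7.10 and 1.18 in the RV and 13.9 and -1.02 in the LV, and the P7 libraries between -44.7 and -24.2. The labelled tissue could not be checked against marker genes, because the rows carry no gene names. In bulk tissue, fewer cells of a type and less RNA per cell cannot be told apart.

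At birth the members spanned a wide range of levels. Their mean over the 6 P0 libraries had a median of 1.18 FPKM and ran between 0.566 and 37.6 FPKM. A total of 33 members were above 1 FPKM (60.0%, beside 39.9% of the 4144 rows that passed the mean and position conditions), and 10 were above 5 FPKM. The rule chose members for high P0 values, so nothing is read from these counts. Assembled TCONS rows made up 24 of the 55 members (43.6%, beside 26.7% of those rows). The 47 members with a position lay on 18 chromosomes, and 16 of them (34.0%) spanned less than 1000 bases, beside 20.96%. The summed level of all members was between 135 and 167 FPKM in RV libraries at P0, between 41.5 and 43.4 FPKM at P3 and between 30.5 and 41.0 FPKM at P7. In LV libraries the sum was between 164 and 193 FPKM at P0, between 48.5 and 58.8 FPKM at P3 and between 28.8 and 35.2 FPKM at P7. Most of the summed level was gone by P3 in each ventricle.

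The most abundant member at birth was NONMMUT011874, a row with no position in the tables. In the RV it stood at 34.9, 22.7 and 24.8 FPKM at P0, 7.32, 11.9 and 6.13 FPKM at P3 and 4.61 and 2.84 FPKM at P7. In the LV it stood at 57.6, 45.6 and 39.9 FPKM at P0, 16.5, 14.9 and 15.2 FPKM at P3 and 2.19, 1.49 and 1.91 FPKM at P7. The 3 ages did not overlap in either ventricle, and the LV libraries were the higher ones at P0 and P3 and the lower ones at P7.

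NONMMUT022806, at chr15:12505450-12505848, came next, with 8.43, 9.40 and 30.9 FPKM at P0, 2.83, 3.09 and 4.82 FPKM at P3 and 1.59 and 1.34 FPKM at P7 in the RV. Its LV libraries held 5.86, 8.22 and 20.1 FPKM at P0, 6.61, 3.63 and 3.08 FPKM at P3 and 1.06, 2.11 and 6.20 FPKM at P7. Replicate 3 carried most of the P0 level in each ventricle, and the P3 and P0 libraries overlapped in the LV.

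NONMMUT036082, at chr2:22868343-22869673, was steadier at birth. It held 11.4, 9.83 and 11.9 FPKM at P0, 2.87, 3.00 and 5.12 FPKM at P3 and 2.06 and 3.06 FPKM at P7 in the RV. The LV values were 13.6, 8.75 and 12.8 FPKM at P0, 2.12, 1.76 and 3.15 FPKM at P3 and 0.845, 1.70 and 2.39 FPKM at P7. P0 libraries stood clear of the later ones in both ventricles. The nearest span-matched rows on either side belong to Pdss1, an enzyme of coenzyme Q synthesis, and Acbd5, a peroxisomal acyl-CoA binding protein. Abi1, a regulator of actin assembly, is the one further coding gene between them in GRCm38. NONMMUT003979, at chr1:180864556-180869330, averaged 9.23 ± 3.14 FPKM at P0, 3.36 ± 0.491 FPKM at P3 and 2.86 ± 0.343 FPKM at P7 in the RV, and 9.31 ± 1.71 FPKM at P0, 3.46 ± 0.538 FPKM at P3 and 2.11 ± 0.525 FPKM at P7 in the LV (SD, n = 3, or 2 in the RV at P7).

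TCONS_00055858, at chr7:129177725-129179488, was lower at each later age. RV libraries held 7.80, 6.70 and 5.75 FPKM at P0, 2.78, 2.94 and 2.23 FPKM at P3 and 0.753 and 1.002 FPKM at P7. LV libraries held 10.1, 8.70 and 8.89 FPKM at P0, 3.10, 2.47 and 2.95 FPKM at P3 and 1.18, 0.700 and 0.592 FPKM at P7. No age overlapped another in either ventricle. Its flanking matched rows enclose 4 coding genes, Ears2, Gga2, Ndufab1 and Ubfd1, of which Ears2 encodes the mitochondrial glutamyl-tRNA synthetase and Ndufab1 the mitochondrial acyl carrier protein.

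NONMMUT046891, which has no position, was at similar levels at P3 and P7. It averaged 7.68 ± 1.75 FPKM at P0, 1.59 ± 0.239 FPKM at P3 and 1.87 ± 1.05 FPKM at P7 in the RV, and 6.57 ± 0.433 FPKM at P0, 2.49 ± 0.883 FPKM at P3 and 2.90 ± 0.805 FPKM at P7 in the LV (SD, n = 3, or 2 in the RV at P7). TCONS_00033550, at chr2:156609566-156610444, averaged 2.58 ± 0.846 FPKM at P0, 0.658 ± 0.339 FPKM at P3 and 0.846 ± 0.484 FPKM at P7 in the RV, and 2.84 ± 0.670 FPKM at P0, 1.15 ± 0.605 FPKM at P3 and 0.568 ± 0.586 FPKM at P7 in the LV. Of the 12 members with the highest level at birth, 11 had every P3 library below every P0 library in both ventricles. NONMMUT022806 was the exception.

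**Figure D1:**
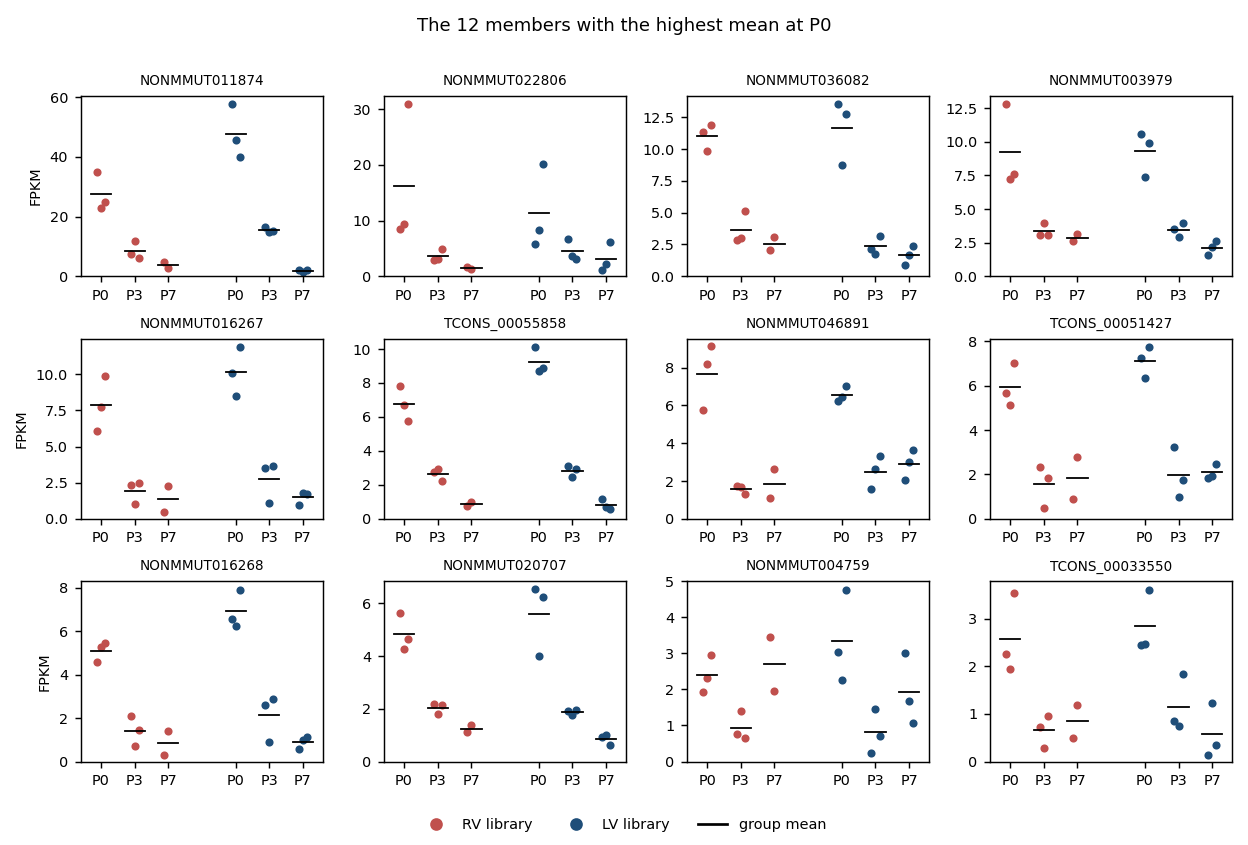
FPKM (linear axis, own scale per panel) of the 12 members with the highest mean at P0, by ventricle and age, with 1 point per library and a bar for the group mean. P3 libraries sit below all P0 libraries of their ventricle in 11 of the 12 panels, and the P7 libraries of NONMMUT004759 overlap its P0 libraries. The rule used the contrast of P3 and P0 to choose these rows.

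A total of 8 members formed 4 neighbouring pairs, each within 50 kb. On chromosome 13, NONMMUT016267 (chr13:6588292-6591319) and NONMMUT016268 (chr13:6591443-6594406) lie 123 bases apart. NONMMUT016267 held 6.08, 7.77 and 9.85 FPKM at P0, 2.37, 1.01 and 2.50 FPKM at P3 and 0.493 and 2.25 FPKM at P7 in the RV. Its LV values were 10.1, 8.48 and 11.9 FPKM at P0, 3.52, 1.10 and 3.64 FPKM at P3 and 0.947, 1.78 and 1.73 FPKM at P7. NONMMUT016268 held 4.59, 5.25 and 5.47 FPKM at P0, 2.08, 0.722 and 1.46 FPKM at P3 and 0.289 and 1.38 FPKM at P7 in the RV, and 6.56, 6.26 and 7.92 FPKM at P0, 2.59, 0.907 and 2.89 FPKM at P3 and 0.579, 0.985 and 1.15 FPKM at P7 in the LV. Both rows have their lowest P3 library in replicate 2 of each ventricle, and both have RV libraries far apart at P7.

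On chromosome 6, TCONS_00051427 (chr6:125113803-125115317) and TCONS_00051428 (chr6:125115406-125115764) lie 88 bases apart. TCONS_00051427 held 5.66, 5.15 and 7.04 FPKM at P0, 2.35, 0.503 and 1.82 FPKM at P3 and 0.876 and 2.78 FPKM at P7 in the RV. In the LV its values were 7.23, 6.37 and 7.75 FPKM at P0, 3.25, 0.992 and 1.73 FPKM at P3 and 1.86, 1.93 and 2.48 FPKM at P7. Replicate 2 was again lowest at P3 in both ventricles. TCONS_00051428 averaged 1.80 ± 0.366 FPKM at P0, 0.374 ± 0.154 FPKM at P3 and 0.566 ± 0.255 FPKM at P7 in the RV, and 1.53 ± 0.612 FPKM at P0, 0.299 ± 0.0690 FPKM at P3 and 0.665 ± 0.356 FPKM at P7 in the LV. The matched rows around the pair enclose 8 coding genes: Chd4, Gapdh, Iffo1, Mrpl51, Ncapd2, Nop2, Tapbpl and Vamp1. Gapdh encodes a glycolytic enzyme and is transcribed at a high level in most tissues. Whether the pair overlaps any of these genes was not examined, and whether reads of a coding gene entered these rows was not tested.

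On chromosome 14, NONMMUT020706 (chr14:50295652-50297695) and NONMMUT020707 (chr14:50299848-50301899) lie 2152 bases apart. Without RV P3 replicate 2, the library that stood apart, their RV drops were -0.72 and -1.12 on the log2 scale. Neither row then met the RV threshold. NONMMUT020707 averaged 4.84 ± 0.706 FPKM at P0, 2.04 ± 0.204 FPKM at P3 and 1.25 ± 0.169 FPKM at P7 in the RV, and 5.59 ± 1.39 FPKM at P0, 1.88 ± 0.104 FPKM at P3 and 0.862 ± 0.192 FPKM at P7 in the LV (SD, n = 3, or 2 in the RV at P7). NONMMUT020706 averaged 1.52 ± 0.267 FPKM at P0, 0.669 ± 0.372 FPKM at P3 and 0.413 ± 0.00946 FPKM at P7 in the RV, and 1.83 ± 0.487 FPKM at P0, 0.687 ± 0.238 FPKM at P3 and 0.317 ± 0.141 FPKM at P7 in the LV. The matched rows around this pair enclose Armh4, Slc35f4 and ccdc198. On chromosome X, TCONS_00063196 (chrX:9057633-9058343) and NONMMUT071807 (chrX:9061839-9064134) lie 3495 bases apart. NONMMUT071807 averaged 1.67 ± 0.268 FPKM at P0, 0.283 ± 0.0438 FPKM at P3 and 0.183 ± 0.0210 FPKM at P7 in the RV, and 1.62 ± 0.252 FPKM at P0, 0.341 ± 0.0685 FPKM at P3 and 0.0904 ± 0.0914 FPKM at P7 in the LV. For TCONS_00063196, the P3 mean was 32.5% of the P0 mean in the RV and 23.4% in the LV.

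P3 replicate 2 was the lowest of its group for 30 members in the RV and 30 in the LV, and for 17 in both (30.9%). Over the 11079 rows kept for testing, which had at least 0.1 FPKM in at least 2 libraries, it was lowest in both for 33.0%.

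Among members, the median of P3 minus P0 on the log2(FPKM + 0.1) scale was -1.74 in the RV and -1.75 in the LV, beside -0.04 and -0.09 over all rows kept. Without P3 replicate 2 of each ventricle the member medians were -1.61 and -1.58. The P3 mean was a median 25.5% of the P0 mean in the RV and 26.8% in the LV. In 46 of the 55 members every P3 library lay below every P0 library in both ventricles, a pattern found in 3.38% of all rows kept. The rule used this contrast, so nothing further is read from the count. Of the 9 members that overlapped in a ventricle, 6 were TCONS rows and 6 spanned less than 1000 bases.

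Averaged over the ventricles, the steepest drop belonged to NONMMUT048680, which has no position. It held 3.33, 1.84 and 1.79 FPKM at P0, 0.251, 0.0888 and 0.147 FPKM at P3 and 0.0338 and 0.131 FPKM at P7 in the RV. In LV libraries the values were 1.88, 1.65 and 1.46 FPKM at P0, 0.163, 0.0323 and 0.273 FPKM at P3 and 0.0688, 0.0368 and 0 FPKM at P7. P3 minus P0 on the log2 scale was -3.19 in the RV and -2.90 in the LV.

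TCONS_00013953, at chr12:100140406-100143271, held 1.39, 1.42 and 1.86 FPKM at P0, 0.153, 0.0617 and 0.0255 FPKM at P3 and 0.118 and 0.102 FPKM at P7 in the RV. LV values were 2.28, 1.77 and 1.96 FPKM at P0, 0.714, 0.527 and 0.368 FPKM at P3 and 0.143, 0.0640 and 0.0934 FPKM at P7. The RV was at its low level by P3, while the LV libraries at P3 lay between the P0 and P7 ones. It is flanked by matched rows that enclose Eml5, Foxn3 and Ttc8, of which Foxn3 encodes a forkhead transcription repressor and Ttc8 a component of the ciliary BBSome complex. TCONS_00060634, at chr9:79566761-79568645, held 0.714, 0.716 and 0.716 FPKM at P0, 0.0817, 0.0192 and 0.0637 FPKM at P3 and 0.0587 and 0.0568 FPKM at P7 in the RV. The LV libraries held 0.930, 0.783 and 0.806 FPKM at P0, 0.0283, 0.0560 and 0.104 FPKM at P3 and 0.0746, 0.0958 and 0.0874 FPKM at P7. Its replicates were close together at P0 in both ventricles. It starts 123 bases after a row matched to a transcript of Col12a1, the gene of a fibril-associated collagen.

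The 4 antisense transcripts printed above were all low at P3. Gm41505, antisense to Kcnj6, held 2.49, 2.52 and 2.61 FPKM at P0, 0.512, 0 and 0.0999 FPKM at P3 and 0.138 and 0.178 FPKM at P7 in the RV, and 2.29, 1.61 and 1.69 FPKM at P0, 0.421, 0.461 and 0.325 FPKM at P3 and 0.327, 0.275 and 0.274 FPKM at P7 in the LV. Every P3 library was low, and RV replicate 2, the library that stood apart, was listed at 0. With and without that library its RV drop was -3.52 and -2.92 on the log2 scale. Gm15283, antisense to Hif1a, held 0.790, 1.36 and 1.27 FPKM at P0, 0.159, 0.125 and 0.392 FPKM at P3 and 0.209 and 0.0553 FPKM at P7 in the RV, and 0.770, 1.31 and 1.31 FPKM at P0, 0.0550, 0.0725 and 0.576 FPKM at P3 and 0.0580, 0.0621 and 0.0567 FPKM at P7 in the LV. Gm16754, antisense to Keap1, held 0.418, 0.823 and 0.836 FPKM at P0, 0.0989, 0.0699 and 0.0867 FPKM at P3 and 0.0533 and 0.0774 FPKM at P7 in the RV, and 1.20, 0.837 and 0.941 FPKM at P0, 0.103, 0.152 and 0.202 FPKM at P3 and 0.0271, 0.0435 and 0.0529 FPKM at P7 in the LV. For both, the P3 and P0 libraries did not overlap. 4930478M13Rik, antisense to Dip2b, was spread widely at birth, with 2.20, 0.0674 and 0.248 FPKM at P0, 0, 0 and 0 FPKM at P3 and 0 and 0.120 FPKM at P7 in the RV. Its LV values were 1.26, 0.147 and 0.732 FPKM at P0, 0, 0 and 0 FPKM at P3 and 0, 0 and 0.370 FPKM at P7. It was listed at 0 in all 6 libraries at P3, and its P7 libraries overlapped the P0 ones in both ventricles.

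A further 2 matched members lie on the sense strand of coding genes. NONMMUT023812 (chr15:66762428-66766031) matches a transcript of Ndrg1 with a retained intron, and Ndrg1 is a gene known to be induced by hypoxia. It held 0.2998, 0.459 and 1.11 FPKM at P0, 0.170, 0 and 0.0765 FPKM at P3 and 0.0282 and 0.177 FPKM at P7 in the RV, and 0.434, 0.434 and 1.22 FPKM at P0, 0.122, 0.134 and 0.0854 FPKM at P3 and 0.115, 0.215 and 0.224 FPKM at P7 in the LV. NONMMUT024332 (chr15:81633137-81636479) matches a transcript without a reading frame of Tef, which encodes a circadian bZIP transcription factor. Its values were 0.881, 1.13 and 0.809 FPKM at P0, 0.592, 0 and 1.20 FPKM at P3 and 0.406 and 0.674 FPKM at P7 in the RV, where P3 and P0 libraries overlapped, and 0.664, 0.550 and 0.683 FPKM at P0, 0.391, 0.111 and 0.117 FPKM at P3 and 1.06, 0.316 and 0.288 FPKM at P7 in the LV. Without RV P3 replicate 2, the library that stood apart, the RV drop of NONMMUT024332 was -0.12 on the log2 scale, beside -1.21 with it. Its place among the members therefore rests on that library. Whether strand was used in counting is not stated in the labels, so reads from a member and from an overlapping coding gene cannot be told apart.

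**Figure D2:**
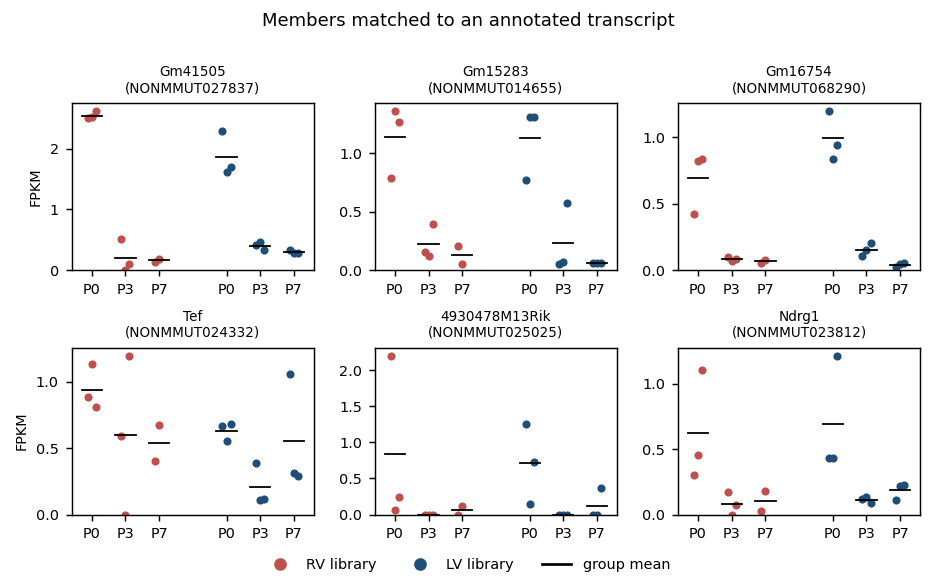
FPKM (linear axis, own scale per panel) of 6 members whose span matches a GENCODE M21 transcript, by ventricle and age, with 1 point per library and a bar for the group mean. Gm41505 and Gm16754 show separated P3 and P0 libraries, while Tef overlaps in the RV through 1 P3 library at 1.20 FPKM.

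By P7 most members were still low. The P7 mean was a median 25.4% of the P0 mean in the RV, with a range of 1.59% to 141%, and 17.3% in the LV, with a range of 0% to 93.5%. Over all rows kept the medians were 70.7% in the RV and 67.5% in the LV. A total of 27 members (49.1%, beside 11.7% of all rows kept) were under 25% in the RV, 37 (67.3%, beside 12.2%) in the LV and 21 (38.2%, beside 4.26%) in both. On the log2 scale P7 minus P0 had a median of -1.79 in the RV and -2.17 in the LV, beside -0.27 and -0.32 over all rows kept. In 38 of the 55 members every P7 library lay below every P0 library in both ventricles, beside 13.4% of all rows kept. The share was 23.2% among the 4144 rows that passed the mean and position conditions. The rule chose members for high P0 values, so no test is given for what remained.

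Averaged over the ventricles on the log2 scale, P7 minus P0 was lowest for NONMMUT011874, at -3.74, with NONMMUT048680 next at -3.73. The P7 mean of NONMMUT011874 was 13.5% of the P0 mean in the RV and 3.91% in the LV, and that of NONMMUT048680 was lower in both, at 3.56% and 2.12%. TCONS_00013953 was left at 7.06% and 5.01%, and TCONS_00055858 at 13.0% and 8.91%, in the RV and LV. TCONS_00026529, at chr17:45860818-45861369, held 0.863, 0.978 and 0.749 FPKM at P0, 0.186, 0 and 0.326 FPKM at P3 and 0.0501 and 0.0970 FPKM at P7 in the RV, and 1.24, 1.13 and 0.836 FPKM at P0, 0.0965, 0.382 and 0.304 FPKM at P3 and 0, 0 and 0 FPKM at P7 in the LV. It spans 552 bases, and its P7 values are worth at most 1 fragment per library, so its level there is at the limit of the depth. Gm15283 was at 11.6% and 5.22%, and Gm16754 at 9.43% and 4.15%. TCONS_00056597, at chr8:24562520-24565117, had the lowest share in the RV, 1.59%, and 4.77% in the LV. It was singled out after its values were seen, and its flanking matched rows enclose Gins4, Golga7, Zmat4 and Sfrp1, a secreted Wnt inhibitor.

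A few members had P7 levels near those at birth. At P7, 10 members (18.2%, beside 67.3% of all rows kept) were above 50% of the P0 mean in the RV, 7 (12.7%, beside 64.8%) in the LV and 4 (7.27%, beside 50.6%) in both. NONMMUT004759, with no position, held 1.92, 2.32 and 2.96 FPKM at P0, 0.771, 1.40 and 0.644 FPKM at P3 and 3.44 and 1.95 FPKM at P7 in the RV. Its LV libraries were at 3.03, 2.25 and 4.77 FPKM at P0, 0.229, 1.47 and 0.719 FPKM at P3 and 3.02, 1.68 and 1.06 FPKM at P7. P7 libraries overlapped P0 libraries in both ventricles, at 112% of the P0 mean in the RV and 57.2% in the LV, while P3 libraries lay below the P0 ones in both.

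TCONS_00059356 (chr8:124176459-124176798) had the highest share left in the RV, 141%, and 45.4% in the LV, but its replicates were far apart. It held 3.13, 0.794 and 0.324 FPKM at P0, 0, 2.35 and 0.177 FPKM at P3 and 1.87 and 2.13 FPKM at P7 in the RV, and 3.72, 1.83 and 0 FPKM at P0, 0.157, 1.47 and 0 FPKM at P3 and 0.331, 1.06 and 1.13 FPKM at P7 in the LV. The P3 and P0 libraries overlapped in both ventricles. TCONS_00016463 (chr13:69673203-69673520) stood at 96.7% and 69.0%, and TCONS_00030393 (chr19:9041029-9041368) at 97.8% and 78.8%, in the RV and LV. These 3 rows span 340, 318 and 340 bases. At P3 the value of TCONS_00030393 was worth between 0 and 3 fragments in a library, and at P7 between 0 and 6.5. Here the step of the values is taken to be 0.5 fragment. NONMMUT024332, the Tef transcript, was at 57.4% in the RV and 87.8% in the LV. Of the 5 members with the most left, 3 overlapped between P3 and P0 in a ventricle. Over the 46 members that did not overlap, the median left at P7 was 21.5% in the RV and 15.4% in the LV, and over the 9 that did it was 51.8% and 27.4%.

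**Figure D3:**
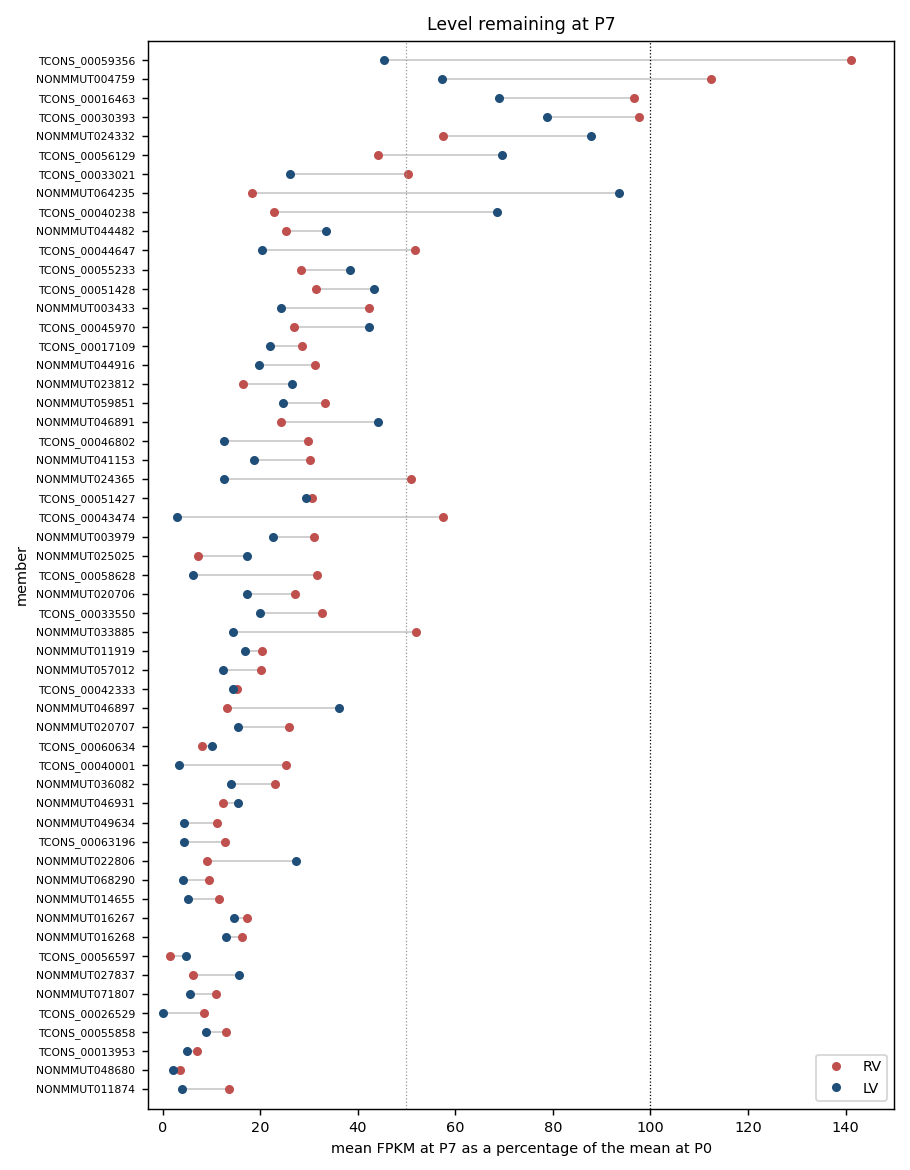
Mean FPKM at P7 as a percentage of the mean at P0 (linear x axis) for each of the 55 members, with 1 point for the RV and 1 for the LV joined by a line, ordered by the average of P7 minus P0 on the log2 scale. Dotted lines mark 50% and 100%. Most points lie under 50%, and 2 RV points and no LV point lie beyond 100%.

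Whether members fell further from P3 on was tested by limma at P7 against P3, on log2(FPKM + 0.1) across all 11079 rows kept. P3 values had been chosen low, which favours a later rise, so only falls were counted. In the RV, 2 members fell at an adjusted p under 0.05, beside 0.514% of all rows kept. In the LV, 5 members fell, beside 1.07% of all rows kept. At an unadjusted p under 0.05, 5 members fell in the RV (9.46% of all rows kept) and 16 in the LV (11.3%). The median of P7 minus P3 was 0.01 in the RV and -0.47 in the LV over members, and -0.22 in each over all rows kept. The RV median moved with single libraries: it was -0.21 without RV P3 replicate 2, 0.25 without RV P7 replicate 1 and -0.34 without RV P7 replicate 2. In the LV it lay between -0.57 and -0.41 without single libraries. After scaling each library to an equal median, the member medians were 0.25 in the RV and -0.23 in the LV, beside 0.02 in each over all rows kept.

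TCONS_00055858 and NONMMUT011874 fell in both ventricles. For TCONS_00055858, P7 minus P3 was -1.49 ± 0.25 in the RV and -1.71 ± 0.22 in the LV on the log2 scale (SE), with limma adjusted p of 0.00452 and 0.000546. For NONMMUT011874 it was -1.14 ± 0.26 in the RV and -3.01 ± 0.23 in the LV, with limma adjusted p of 0.0468 and 1.01e-06. The call of NONMMUT011874 in the RV was lost under 21 of 24 alternatives, with limma adjusted p between 0.0372 and 0.321, and without RV P3 replicate 2, the library that stood apart, it was 0.164. The call of TCONS_00055858 in the RV was lost without RV P7 replicate 1 and in a fit of RV P7 and P3 alone, with limma adjusted p between 0.00264 and 0.141 over the alternatives. In the LV both calls held under all 24 alternatives.

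The other 3 members called in the LV were TCONS_00013953, with -1.65 ± 0.32 (limma adjusted p = 0.0127), NONMMUT020707, with -1.06 ± 0.22 (limma adjusted p = 0.0200), and NONMMUT071807, with -1.30 ± 0.31 (limma adjusted p = 0.0444). These calls were lost under 5, 8 and 21 of the 24 alternatives. NONMMUT011874 is the member with the smallest p for a ventricle difference in P7 minus P3, at 1.86 ± 0.35 (log2, SE, RV less LV). In this test over all rows kept, added after the values were seen, its limma adjusted p was 0.234, and 0 rows passed 0.05. At an unadjusted p under 0.05, 426 rows passed, 5 of them members.

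The ventricles were compared within the same limma fit. At P7, 0 members differed between RV and LV at an adjusted p under 0.05, beside 0.00903% of all rows kept, which is 1 row. At an unadjusted p under 0.05, 3 members and 495 rows (4.47%) passed. The members were TCONS_00040001, NONMMUT011874 and TCONS_00043474. The smallest limma adjusted p among members was 0.702, for TCONS_00040001 (chr3:142058776-142093127), which held 0.383 and 0.212 FPKM in the RV and 0.111, 0 and 0 FPKM in the LV. The difference was 1.60 ± 0.42 on the log2 scale (SE, positive where the RV was higher). At P0, 0 members differed between RV and LV, beside 0% of all rows kept by the same limma test. The P0 libraries entered the rule, which asked for a drop in both ventricles, so no agreement is read from this. At an unadjusted p under 0.05, 1 member and 587 rows (5.3%) passed. That member was NONMMUT011874, with a log2 difference of -0.80 ± 0.23 and a limma adjusted p of 0.766. At P7 its difference was 0.94 ± 0.26, with a limma adjusted p of 0.837.

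At P7, RV and LV were within 1 log2 unit for 49 of 55 members (89.1%, beside 96.6% of all rows kept). The RV was higher for 35 of the 55, beside 5466 of the 11079 rows kept. The RV minus LV difference at P7 had a median of 0.13 over members. That median was 0.36 without RV P7 replicate 1, 0.09 without RV P7 replicate 2 and 0.28 without LV P7 replicate 2, and with the other LV P7 libraries left out it was 0.20 and 0.19. At P0 the median was -0.06, and 52 of 55 (94.5%, beside 97.2%) were within 1 log2 unit. The RV was higher for 20, beside 4830 of the 11079 rows kept and 1502 of the 4144 that passed the mean and position conditions. The rule asked for a drop from P0 in both ventricles, so nothing is read from these P0 counts. Without single libraries the P0 median lay between -0.17 and -0.04. The drop at P3 itself differed between ventricles by less than 0.5 for 38 members (69.1%, beside 66.5% of all rows kept) and by more than 1 for 5 (9.09%, beside 8.32%). The rule set a limit on this drop in each ventricle, so nothing is read from these counts. Among those 5, NONMMUT027837 (Gm41505) had -3.52 in the RV and -1.96 in the LV, and TCONS_00013953 had -3.25 and -1.75. NONMMUT046897 had -2.57 and -1.37, NONMMUT049634 had -1.28 and -2.38, and NONMMUT003433 had -1.36 and -2.43. Leaving out RV P3 replicate 2, a setting chosen after the values were seen, gave RV drops of -2.92 for NONMMUT027837, -3.21 for TCONS_00013953, -1.73 for NONMMUT046897, -1.13 for NONMMUT049634 and -0.94 for NONMMUT003433. The gap between ventricles was then under 1 for NONMMUT027837 and NONMMUT046897, and NONMMUT049634 and NONMMUT003433 no longer met the RV threshold. The number of members with a gap over 1 was still 5. RV less LV, the gap was -1.45 for TCONS_00013953, 1.26 for NONMMUT049634 and 1.49 for NONMMUT003433. TCONS_00059356, at -1.29, and NONMMUT024332, at 1.25, had a gap over 1 only in this setting. With all libraries, the RV had the larger drop in 28 of the 55 members, beside 4968 of the 11079 rows kept. At P7, NONMMUT064235 stood at 18.4% of its P0 mean in the RV and 93.5% in the LV, where it was listed at 0 in all 3 P3 libraries and held 0, 0.528 and 0.402 FPKM at P7. Apart from NONMMUT027837, TCONS_00013953 and NONMMUT011874, the members named for a ventricle difference were singled out after their values were seen.

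**Figure D4:**
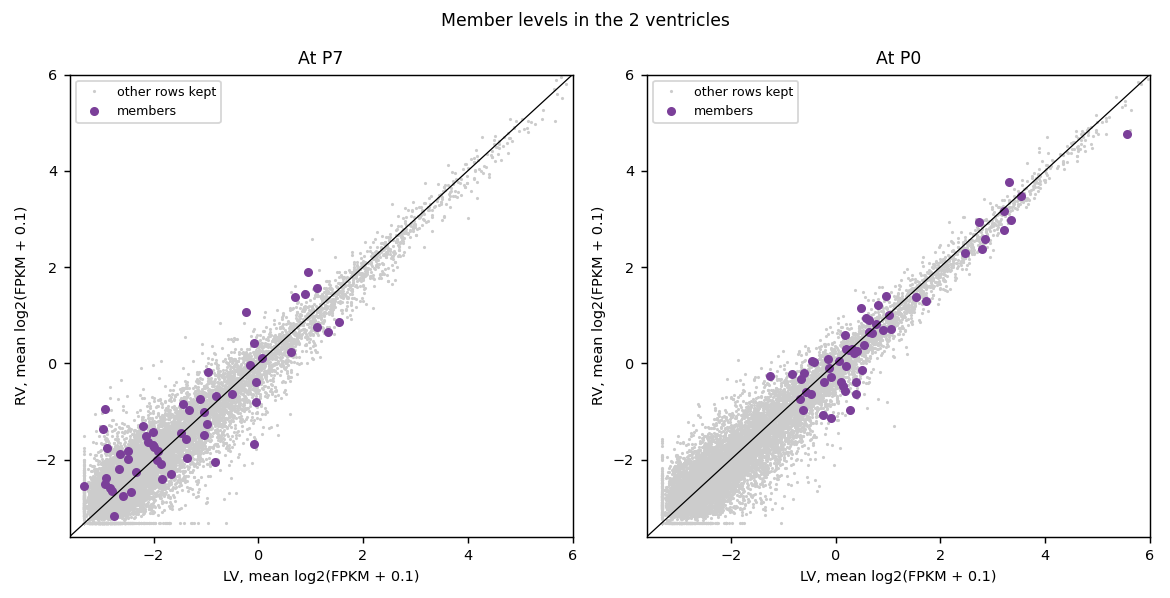
Mean log2(FPKM + 0.1) in the RV (y axis) against the LV (x axis) at P7 and at P0, with members as large points, the other rows kept as small points and the line of equal level. The axes end at 6, and other rows above that are not drawn. At P7 all but 6 members lie within 1 log2 unit of the line, and at P0 all but 3.

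Rows near a member were examined for the same contrast. Within 50 kb, 30 of the 47 positioned members had 82 rows kept that were not members. Rows past both thresholds are members unless their mean or position excludes them, and 17 of the 10445 positioned rows kept that were no members were past both, so whether neighbours pass them is not read. P3 was below P0 in both ventricles for 42 of the 82 neighbours (51.2%), beside 37.8% of all positioned rows kept, members included, and the neighbours' median was -0.14 in the RV and -0.20 in the LV. Within 10 kb there were 43 such rows, 44.2% of them lower in both. A total of 9 members overlapped a row kept that was no member, and 12 of the 29 overlapping rows were lower in both. NONMMUT003433 alone had 16 of the 82 neighbours and 15 of the 29 overlapping rows, so these rows are not separate loci. The only neighbours at or below -1 in both ventricles each share the exact position of a member. They are named for that drop, and no other row that overlaps these members reached it. NONMMUT003439, at the position of NONMMUT003433, had -1.08 in the RV and -1.34 in the LV. One of the rows named NONMMUT003981, at the position of NONMMUT003979, had -1.05 and -1.10. Rows at one position can share reads.

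For 35 positioned members, matched rows with equal spacing on both sides fixed the surrounding coding genes in GRCm38 order, and for 13 no more than 4 coding genes lay between. Beside those given above, TCONS_00044647 (chr5:43730578-43745176) lies between rows that enclose C1qtnf7 and Cpeb2, and TCONS_00046802 (chr5:67774582-67775465) between rows that enclose Bend4, Slc30a9 and Tmem33. TCONS_00058628 (chr8:64762709-64763669) lies between rows that enclose Anxa10, Ddx60 and Spock3. Cpeb2 encodes a cytoplasmic polyadenylation factor. The levels of these coding genes were not analysed here.

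Members just inside the thresholds were NONMMUT044916, with -1.2004 in the RV and -1.30 in the LV, NONMMUT020707, with -1.203 and -1.495, and NONMMUT024332, with -1.21 and -1.37. Rows just outside were NONMMUT020006, with -1.19 and -1.72, NONMMUT061291, with -1.18 and -1.18, and NONMMUT032153, with -1.42 and -1.18. No gap in the values separates the members from the rows outside.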

How the data were processed

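Total RNA of RV and LV at 3 ages was sequenced in 17 strand-specific libraries, per the labels' protocols. The submitters' processing notes name STAR 2.4.0j and mm10, while the deposited positions are taken to be mm9, since they run past the mm10 annotation. The authors deposited 1 value per row and library, made from aligned reads and read here as FPKM, a unit the tables do not name. The basis is that 67.7% to 73.8% of low values per library, multiplied by row span, fell within 0.01 of whole multiples of a constant step. The step also gave the implied depths and fragment numbers, on the assumption that it stands for 0.5 fragment, which was not tested. No source used here gives the annotation or counting tool.

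Members and lists were chosen with earlier results of these data known. R 4.3.3 and limma 3.58.1 fitted log2(FPKM + 0.1), which understates changes of low rows, with 1 mean per group over 17 libraries, a variance trend and robust moderation. Rows reaching 0.1 FPKM in 2 or more libraries entered, and p-values were adjusted by Benjamini-Hochberg over all 11079. The fit was tested on simulated data. Alternatives changed pseudocount, filter, scaling, block, trend, groups fitted, thresholds, window and libraries. Named members were the 12 highest at P0, the 5 steepest, all pairs, the 5 with most and 5 with least left at P7, those called lower at P7 in both ventricles, and 3 rows on each side of the threshold. Others are marked in the text. No gene list could be measured, since rows carry no gene names. The match of 1 member and the flanking genes of another are not reported here.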

Additional observations from a re-analysis of the deposited data

How the results depend on the processing

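The number of members depended on the rule's settings: it was 6 with a pseudocount of 1, 90 with 0.01, 14 with a mean of at least 1 FPKM, 90 with a threshold of -1, 27 with a threshold of -1.5, and between 46 and 61 without single libraries. Without RV P3 replicate 2, the library that stood apart, 47 rows met the rule, 45 of them among the 55 members. Those that no longer met it included NONMMUT044916, with an RV drop of -1.05, and TCONS_00046802, with -0.84. Median P7 minus P0 in the RV was -0.73 with a pseudocount of 1 and between -2.11 and -1.56 without single libraries. In the LV it was -0.91 with a pseudocount of 1, -2.81 with 0.01, -1.85 after median scaling, and between -2.26 and -2.10 without single libraries.

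Members lower at P7 than at P3 in the RV numbered 1 with a pseudocount of 1, without the filter, after median scaling or with no variance trend, and 0 when the compared groups were fitted alone. Without single libraries they numbered between 0 and 2, with 0 without RV P7 replicate 1; the lone RV P7 library is then assumed to vary like the other groups. In the LV they numbered 2 with a pseudocount of 1 or the compared groups alone, and 3 without the filter, after median scaling or without the trend. Without single libraries the LV number lay between 2 and 6, with 2 without LV P3 replicate 1 or LV P7 replicate 3 and 3 without LV P3 replicate 3 or LV P7 replicate 2. The cause of these changes was not tested. RV against LV gave 0 members at P0 and at P7 under every alternative run.

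Replicate numbers are treated as names only. Correlations of same-numbered RV and LV libraries within an age were between 0.045 and 0.172, not all over 0.1, although each was higher than with other numbers, and those of P7 and P3 libraries were between -0.087 and 0.009. With a replicate block, members lower at P7 than at P3 numbered 1 in the RV and 4 in the LV, and RV against LV gave 0 at both ages.

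Depth limits the shorter members most: below 1 FPKM, rows under 1000 bases rest on few fragments, and exact zeros cannot be told from missed estimates. Cell type and coding gene levels were not measured, and positions are on another build than the annotation.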
